A study of Mus musculus with 19 samples.

Results

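Polyadenylated RNA had been sequenced in bulk from 19 lymphomas of Em-Myc mice, 1 library per tumour, and 4 of the 19 had raised expression over chromosome 15, which carries Myc. These 4 lymphomas were set against 14 others. They were chosen from the expression values themselves: the median over chromosome 15 genes, taken relative to each gene's median over the libraries and to the library's autosomal median, had to be raised by 0.25 or more on the log2 scale. One library, HET_early_2, belongs to neither set and was left out. Chromosome 15 is therefore described without a test, and tests are given for genes and chromosomes elsewhere.

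Every mouse carried the Em-Myc transgene, a Myc oncogene placed under the enhancer of the antibody heavy chain locus and so active in the B lineage. The mice were Bptf+/+ (WT) or heterozygous, Bptf+/Δ (HET), and Bptf encodes a subunit of the NURF chromatin remodelling complex. The labels divide the tumours by age at onset into early (8 to 17 weeks) and late (28 to 76 weeks). The raised lymphomas were WT_late_5 (onset at 28 weeks), WT_late_1 (36 weeks), WT_early_5 (13 weeks) and HET_late_1 (30 weeks). They came from 2 of 5 late and 1 of 6 early wild-type tumours, and from 1 of 4 late and 0 of 4 early heterozygous tumours. The 14 other lymphomas had onsets of 8 to 76 weeks. Genotype and onset are thus unevenly spread over the sets. The X-linked gene Xist was above 1000 in 3 of the 4 raised libraries and in 6 of the 14 others. The numbers in these names only tell the libraries of a group apart. The labels name separate lymphomas but do not say that each came from its own animal, so p-values below measure the spread between these tumours.

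MYC is a transcription factor that pairs with MAX, binds E-boxes with the core CACGTG, and raises the output of ribosome, nucleotide and growth genes. In mice Myc lies on chromosome 15, and extra copies of that chromosome are a recurrent finding in mouse lymphoid tumours. Copy number was not measured in these lymphomas. In a lymphoma driven by a Myc transgene, the RNA counted as Myc can come from the transgene or from the gene on chromosome 15, and the deposited values do not separate them. In bulk RNA, fewer cells of a type and less RNA per cell cannot be told apart.

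The raised libraries held 9291937 to 11506496 reads assigned to genes, and the 14 others 8297856 to 12497732. Values below are the deposited normalised read counts unless said otherwise. Bptf, the gene altered in the heterozygotes, stood at 2217, 1681 and 2098 in WT_late_5, WT_late_1 and WT_early_5, and at 1573 in HET_late_1, against 408 to 2586 in the 14 others. A count over the whole gene does not show a partial deletion of 1 allele. Among the 14 others, WT_early_6 was led by the salivary transcript Bpifa2, with 5.07% of its total, and HET_late_4 by the immunoglobulin transcript Igha. The other 12 and the 4 raised libraries were led by Eef1a1.

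The raised set was not of one kind in its B cell markers, so those are given first. Ebf1, a transcription factor that sets up the B lineage, stood at 1103 in WT_late_5 and 2530 in WT_early_5, but at 23.1 in WT_late_1 and 49.7 in HET_late_1. In the 14 others it ran from 64.8 in HET_late_2 through a median of 1043 to 2267. Thus 2 of the 4 raised libraries, and 1 of the 14 others, had Ebf1 under 100. Pou2af1, a B cell coactivator, followed the same division, at 7002 and 7437 in WT_late_5 and WT_early_5, and 4.61 and 93.2 in WT_late_1 and HET_late_1. Both chains that signal for the B cell receptor were lower in WT_late_1 and HET_late_1 than in any of the 14 others. Cd79a had 103 and 517 in that pair, against 1352 to 11925 in the 14 others, and Cd79b had 2737 and 2902, against 3358 to 7301. Pax5 had 776 and 2252, inside the range of 482 to 4702 in the others. The B cell genes Ms4a1 and Blnk did not follow the division. Ms4a1 had 324 and 1603 in WT_late_1 and HET_late_1, and 284 and 9.79 in WT_late_5 and WT_early_5. Blnk had 1997 and 1667 in WT_late_1 and HET_late_1, and 1719 and 2622 in WT_late_5 and WT_early_5. Across 11457 genes of the other autosomes, the deviations of WT_late_1 and HET_late_1 correlated with each other at a Pearson r of 0.83. HET_late_2, the library of low Ebf1 among the others, reached 0.62 with HET_late_1 and 0.55 with WT_late_1. The closest library to WT_early_5 reached 0.35 and the closest to WT_late_5 0.30. These correlations are across genes of 1 library pair each, which are not replicates. The low raised libraries carried different genotypes by label and differed in Xist, with 6.45 in WT_late_1 and 10694 in HET_late_1. Results are therefore given with and without the libraries of low Ebf1.

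Chromosome 15 expression stood 0.42 above that of the other lymphomas on the log2 scale. The median deviation was 0.50 in WT_late_5, 0.37 in WT_late_1, 0.35 in WT_early_5 and 0.26 in HET_late_1. In the 14 others it ran from -0.13 to 0.06. The nearest library inside the threshold was HET_late_1 at 0.26, and the nearest outside was HET_late_4 at 0.06, so no library lay close below the threshold. HET_early_2, in neither set, stood at -0.23. The raised set averaged 0.37 ± 0.10 (SD, n = 4) and the others -0.05 ± 0.05 (SD, n = 14). Without the 3 libraries of low Ebf1 the difference was 0.48.

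**Figure D1:**
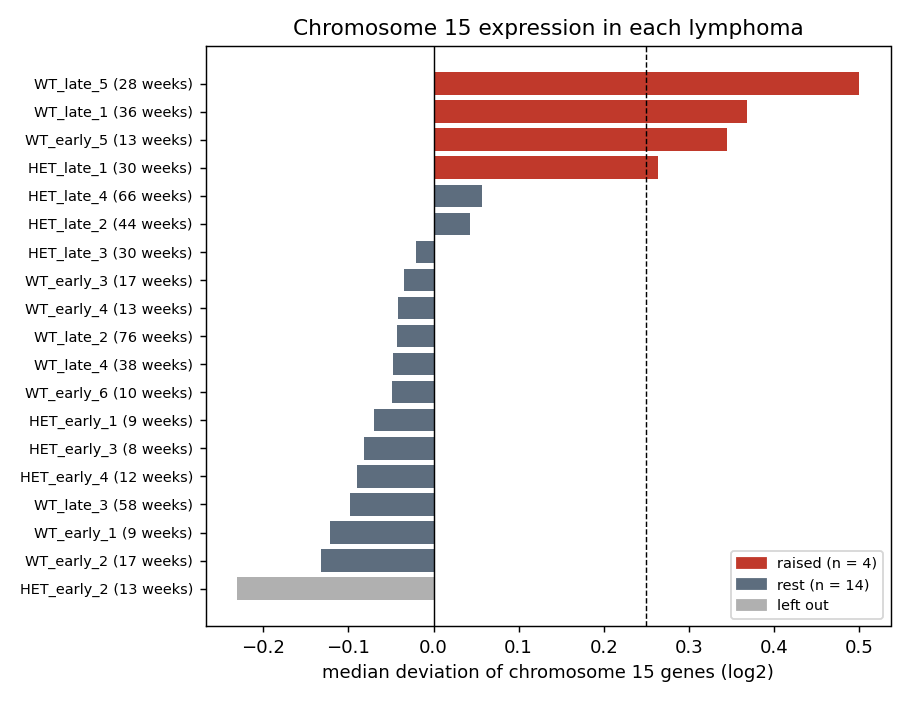
Each bar is the median deviation of chromosome 15 genes in 1 lymphoma, in log2 units, with the age at onset in weeks beside its name; the dashed line marks the 0.25 used to choose the raised set. The 4 raised libraries run from 0.26 to 0.50, and the 14 others end at 0.06.

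The shift was spread over most genes of the chromosome. Of 491 chromosome 15 genes with a mean value of at least 10, 433 (88.2%) were higher on average in the raised set, against 49.6% of 11457 genes on the other autosomes. The median gene difference was 0.46, with quartiles of 0.23 and 0.74. Within single libraries, 80.0% of the 491 genes lay above their own median in WT_late_5, 74.9% in WT_late_1, 78.6% in WT_early_5 and 71.5% in HET_late_1. In the 14 others that share ran from 35.4% to 54.2%. Sorted by level into 4 classes at the quartiles of all genes, chromosome 15 genes had median differences of 0.39, 0.38, 0.46 and 0.52, in order of rising abundance.

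The shift was seen on both sides of Myc. The 130 genes before it had a median difference of 0.39 and the 360 genes beyond it 0.49. In windows of 10 Mb the raised mean was above the mean of the others in all 11, by 0.26 to 0.51. HET_late_1 was the lowest of the raised libraries in 7 of the 11 windows. It stood at 0.01 in the first window, at -0.06 in the window from 40 to 50 Mb and at 0.48 in the last. WT_early_5 was lowest in the window that starts at 60 Mb and holds Myc, at -0.03 over 14 genes. Windows of 7 to 16 genes were broad in the other lymphomas too, down to -1.28 over 9 genes. In larger windows HET_late_2, of the others, reached the raised libraries. It stood at 0.313 over the 125 genes from 70 to 80 Mb, where WT_early_5, the lowest raised library, had 0.312. In the last window, of 62 genes, HET_late_2 stood at 0.41 and WT_early_5 at 0.36.

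**Figure D2:**
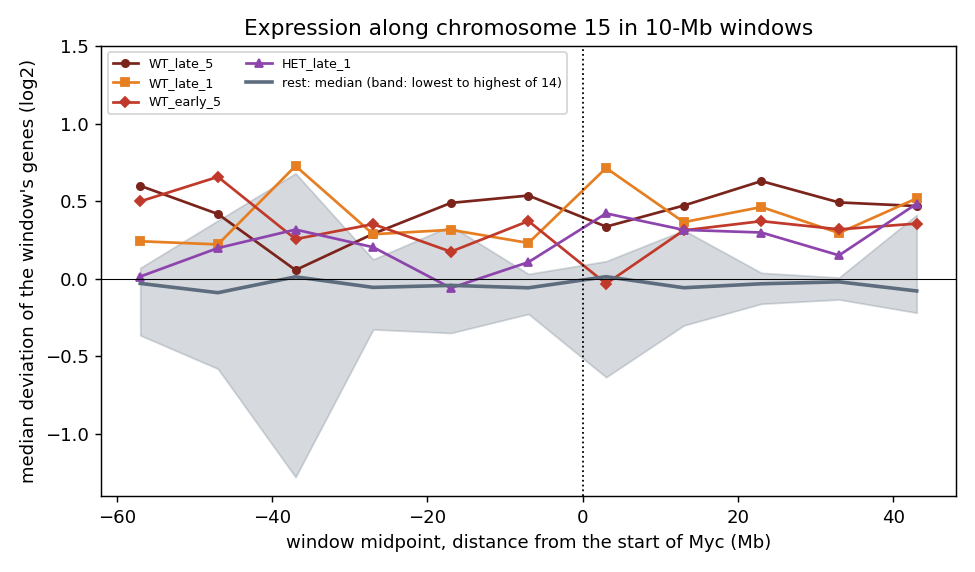
The horizontal axis is the distance of a 10-Mb window's midpoint from the start of Myc, in Mb, and the vertical axis the median deviation of its genes in log2 units. Coloured lines are the 4 raised libraries, and the grey line and band are the median and full range of the 14 others. At midpoints from 13.0 to 33.0 Mb beyond the start of Myc every raised line stands at or above 0.15.

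Myc itself did not mark these lymphomas. Myc (chr15:61985391-61990374, GRCm38, plus strand) had 14847 in WT_late_5, 6006 in WT_late_1, 6099 in WT_early_5 and 6567 in HET_late_1. In the 14 others it ran from 2271 in WT_late_2 through a median of 7454 to 16555 in WT_early_3. Of those 14, 11 stood at or above the lowest raised library, and 3 of the 4 raised libraries lay below the median of the others. The mean was 8379.8 ± 4318 in the raised set (SD, n = 4) and 8189.8 ± 3976 in the others (SD, n = 14), a log2 difference of 0.09. It was -0.22 without WT_late_5, -0.02 after quantile normalisation and 0.32 without the libraries of low Ebf1, so the direction changed with the setting. Pvt1, the noncoding gene just beyond Myc (chr15:62037986-62378096), had 98.9, 112, 56.1 and 138 in WT_late_5, WT_late_1, WT_early_5 and HET_late_1, inside the range of 26.0 to 159.9 in the others.

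Around Myc, 15 of 20 neighbouring genes were higher, with a median difference of 0.32. Atad2, a bromodomain protein known as a cofactor of MYC, had 2950.3, 2315, 3234 and 1841 in WT_late_5, WT_late_1, WT_early_5 and HET_late_1, against a median of 1659 and a highest value of 2386 in the others. Fam49b, a negative regulator of RAC signalling, had 2774, 5481, 2361 and 3709, against 1521 to 2700.0. Both genes overlapped between the sets, Atad2 in WT_late_1 and HET_late_1 and Fam49b in WT_early_5. Trib1, a pseudokinase beside Myc, went the other way, with a difference of -0.76.

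With each library centred on its autosomal median, no overlap between the sets was left for 35 of the 491 chromosome 15 genes, all higher, which is 7.13%. One of the 35, Cers5, overlapped slightly on the deposited values, with 755 in HET_late_1 against 758 in the highest of the others. Elsewhere on the autosomes 21 genes (0.183%) were higher and 12 (0.105%) lower without overlap. The chromosome 15 share follows from the choice of libraries and is given as a description. Without WT_late_1 and HET_late_1 the counts were 101 of 486 higher (20.8%) and 0 lower on chromosome 15, against 153 higher (1.35%) and 148 lower (1.3%) elsewhere. With only those 2 as the raised set they were 92 of 485 higher (19.0%) and 4 lower (0.825%), against 653 higher (5.73%) and 349 lower (3.06%). Each raised library was chosen for its own chromosome 15 median, so the shift in both pairs follows from that choice. The pair of low Ebf1 also stood apart at many genes elsewhere.

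The most abundant gene without overlap was Myh9, the heavy chain of nonmuscle myosin IIA. It had 10708, 14469, 10155 and 11944 in WT_late_5, WT_late_1, WT_early_5 and HET_late_1, against 2968 to 9362 in the others, with a log2 difference of 1.06. Both amino acid transporters of the pair Slc38a1 and Slc38a2, which bring glutamine into cells, were of this kind. Slc38a2 had 5020.4, 6405, 5253 and 4909.9, against 966 to 3527 (difference 1.15). Slc38a1 had 3944, 4662, 5245 and 4085, against 1075 to 2932. Sun2, which ties the nuclear envelope to the cytoskeleton, had 2802, 4642, 2977 and 3009.9, against 1052 to 2151.

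Promoters are shown for 2 genes of that set, because one holds the MYC motif and the other does not. Tnrc6b, which encodes a GW182 protein of microRNA silencing, had 1317, 1194, 1566 and 1295 in the same order, against 213 to 958 in the others. It was the only one of 22 non-overlapping genes with a promoter window that held the E-box CACGTG; Myh9 held none. Each window runs from 250 bases before an annotated start to 50 after it and is printed 5′ to 3′ on the gene's strand, with the E-box in capitals. The sequences are from RefSeq on GRCm38.p6, at chr15:80798360-80798659 (plus strand) for Tnrc6b and chr15:77842126-77842425 (minus strand) for Myh9. RefSeq lists 2 starts for Tnrc6b: the window shown lies at the inner one, inside the gene, and the window at the outer one (chr15:80711063-80711362) holds no CACGTG.
Tnrc6b: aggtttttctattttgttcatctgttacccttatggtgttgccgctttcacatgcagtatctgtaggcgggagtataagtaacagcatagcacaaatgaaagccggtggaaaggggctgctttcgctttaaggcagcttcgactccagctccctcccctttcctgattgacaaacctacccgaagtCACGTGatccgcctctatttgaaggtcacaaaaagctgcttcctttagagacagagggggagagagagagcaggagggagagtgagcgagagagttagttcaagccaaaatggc
Myh9: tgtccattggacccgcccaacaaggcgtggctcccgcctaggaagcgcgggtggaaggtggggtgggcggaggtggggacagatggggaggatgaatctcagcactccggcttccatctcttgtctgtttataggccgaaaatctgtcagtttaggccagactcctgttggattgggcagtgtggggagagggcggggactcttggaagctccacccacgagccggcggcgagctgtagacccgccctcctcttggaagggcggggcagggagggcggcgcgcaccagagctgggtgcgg
CACGTG reads the same on both strands, and it was present in 7.15% of 32851 windows of all genes and in 6.94% of 936 on chromosome 15. Counted by gene, as for the 22, it was 10.0% of 270 on chromosome 15 and 11.8% of 8949 on the other autosomes. The 27 chromosome 15 genes with CACGTG had a median difference of 0.69 and the 243 without it 0.47. On the other autosomes those medians were -0.02 over 1052 genes and close to 0 over 7897. A match only says that these letters lie in the window.

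The chromosome's housekeeping genes moved by about the size of the whole-chromosome shift, in nearly every case in the same direction. All 18 genes of DNA replication and mitosis were higher, with a median of 0.46. Rad21, a subunit of the cohesin ring, had 5014, 4067, 5698 and 3809.6 in WT_late_5, WT_late_1, WT_early_5 and HET_late_1, against 1669 to 3769.8 in the others. Racgap1, which acts in cytokinesis, had 3493, 3004, 2833 and 3405, against 1564 to 2623. Neither gene overlapped between the sets, although for Rad21 the lowest raised and the highest other library were close. Tonsl, a replication fork repair factor, had the largest difference of the list, 0.94.

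All 20 genes of RNA synthesis and processing were higher (median 0.39), from Polr2k (0.02), an RNA polymerase subunit, to Pcbp2 (0.65), an RNA-binding protein. All 12 translation genes were higher (median 0.37), but by unequal amounts. Pabpc1, the poly(A)-binding protein, had 49113, 35783, 32308 and 32594, against 18344 to 37396, while the ribosomal protein gene Rpl3 differed by 0.05. All 13 mitochondrial genes were higher (median 0.34), with Cyc1, a subunit of respiratory complex III, at 2926, 2274, 2234 and 2182 against 1478 to 3219. Over all 19555 genes tested the median difference was 0.03, with 52.7% higher.

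Chromatin and transcription genes were higher in 20 of 24 cases (median 0.51). Ep300, a histone acetyltransferase, had 2365, 2353, 2245 and 1985 in WT_late_5, WT_late_1, WT_early_5 and HET_late_1, against 364 to 1508 in the others, with no overlap and a difference of 1.11. Kmt2d, a histone H3 lysine methyltransferase, differed by 1.21, and Srebf2, which drives cholesterol synthesis genes, by 1.06. Cbx5, the heterochromatin protein HP1 alpha, had 7893, 5297, 6822 and 5071, against 1411 to 5686. Atf4, a stress response factor, differed by 0.11.

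Lymphocyte genes of chromosome 15 spread most widely, from -0.68 to 3.22, with 21 of 26 higher and a median of 0.83. Without the libraries of low Ebf1 that median was 0.36, while the medians of the replication (0.68), RNA (0.55) and chromatin lists (0.66) were larger than with them. Nckap1l, a WAVE complex subunit of blood cells, had 4097, 5043, 4057 and 4545, against 2229.7 to 3144, with no overlap. Rac2, a small GTPase of blood cells, had 7754, 12614, 5806 and 10125, against 2652 to 10405. Ly6e, a membrane-anchored protein, had 10719, 22016, 8667 and 21225, against 3726 to 26539. For Rac2 and Ly6e the highest of the others was HET_late_2, the third library of low Ebf1.

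That pattern held for 7 of the 10 chromosome 15 genes with the largest differences. Grap2, an adaptor of T cell receptor signalling, had 1799.8 and 2036 in WT_late_1 and HET_late_1, but 254 and 187 in WT_late_5 and WT_early_5, against a median of 75.3 and a highest value of 671 in the others. Nfam1, a receptor that signals through an ITAM, had 3492 and 2803 in WT_late_1 and HET_late_1 and 569.6 and 263 in WT_late_5 and WT_early_5, against a median of 225. Ly6k, Prickle1, Ly6d and Slc39a4 were likewise high in WT_late_1 and HET_late_1, and HET_late_2 was the highest of the others for each of them. Ly6k stood at 1.18 and 2.67 in WT_late_5 and WT_early_5. The keratin genes Krt8 and Krt18 were led by WT_late_1 alone, with 1551 and 4410.0. Lgals1, which encodes galectin-1, had 4761, 7645, 3535 and 7383 in WT_late_5, WT_late_1, WT_early_5 and HET_late_1, and only HET_late_2 among the others (15211) stood above the lowest of these. Celsr1, an atypical cadherin, was the exception: it had 655, 493, 1219 and 345, against a highest value of 344 in the others, a difference of 3.42.

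At the other end stood Glycam1, a ligand of L-selectin (difference -2.66), the sodium channel gene Scn8a (-2.39), Enpp2, the lysophospholipase D autotaxin (-1.64), the stress kinase gene Mapk11 (-1.24) and Ptk2, the focal adhesion kinase (-1.08). Ptk2 had 1106 in WT_late_5 and 93.5 to 210.0 in the other 3 raised libraries, against a median of 723 and a highest value of 978 in the others. All 5 overlapped between the sets.

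**Figure D3:**
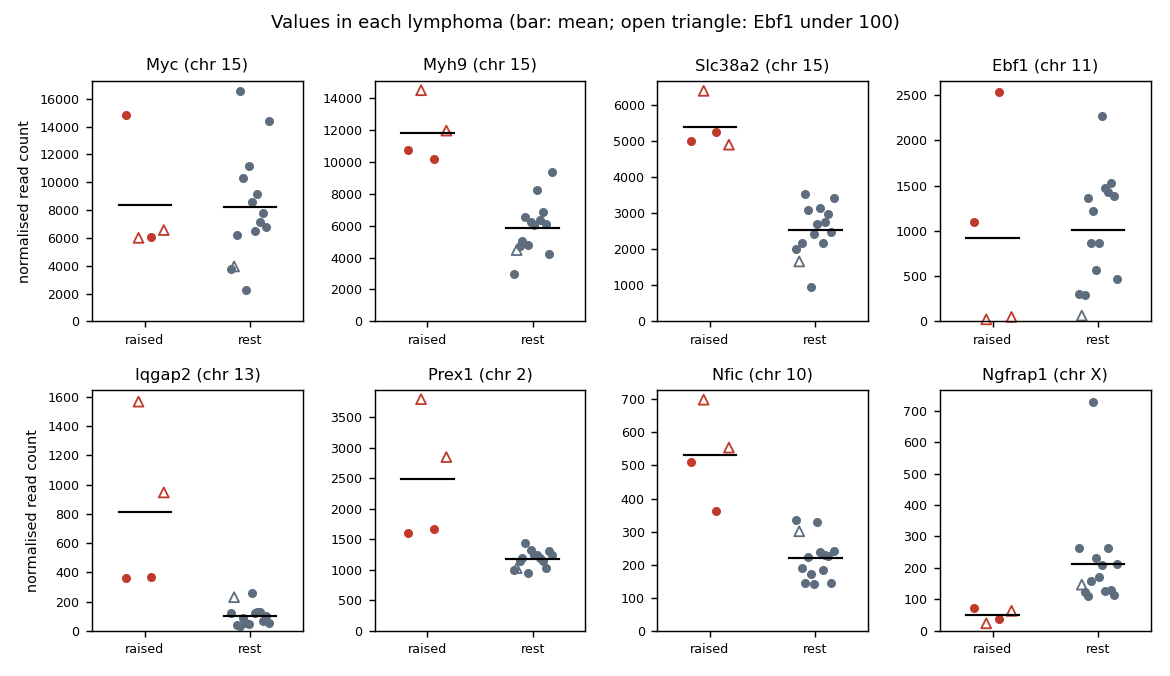
Each panel shows 1 gene, with the deposited normalised read count on the vertical axis, 1 point per lymphoma, raised libraries left and the 14 others right, and a bar at the mean; open triangles are the libraries with Ebf1 under 100. Myc overlaps fully, Myh9 and Slc38a2 do not overlap, and in Iqgap2 and Prex1 the triangles of the raised set lie above its filled points.

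Off chromosome 15, few genes separated the sets. In limma, with Benjamini-Hochberg adjustment over the 19555 genes tested, 16 of 15067 genes off the chromosome passed at 0.05: 13 were higher (0.0863%) and 3 lower (0.0199%) in the raised set. That adjustment includes the chromosome 15 genes, whose values chose the sets. Adjusted over genes off chromosome 15 alone, 3 of the 16 passed (Espnl, Iqgap2 and Dok6, all higher), and the other 13 had adjusted p-values of 0.0552 to 0.0699. Dok6 entered the fit only through the raised libraries, because its highest value in the others was 0.787. The filter asked for 1 or more in at least 4 libraries, so the Dok6 call is no support. At an unadjusted 0.05, 1489 genes off the chromosome passed (9.88%). On whole reads recovered from the deposited values, edgeR called 109 such genes, 106 higher (0.704%) and 3 lower (0.0199%), of which 15 were shared with limma. DESeq2 called 298, 194 higher (1.29%) and 104 lower (0.69%), of which 13 were shared with limma.

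These calls were lost without the pair of low Ebf1, which also leaves fewer raised libraries. Without WT_late_1 and HET_late_1 limma made 0 calls off chromosome 15, with 801 genes at an unadjusted 0.05. It made 0 calls without either of them alone, and 0 without all 3 libraries of low Ebf1. Without HET_late_2 it made 50, without WT_early_5 46 and without WT_late_5 42. The part of the B cell difference in these calls was not tested otherwise, and with the 4 label groups of genotype and onset as covariate limma made 17 calls, 9 of them shared.

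The higher genes are given with their p-values adjusted over all genes. Of those in this and the next paragraph, only Iqgap2, Espnl and Dok6 passed when adjusted over genes off chromosome 15 alone. Iqgap2, a scaffold that binds RAC and CDC42, had 364, 1568, 366 and 947 in WT_late_5, WT_late_1, WT_early_5 and HET_late_1, against 36.4 to 258 in the others (median 96.5). The sets did not overlap, and the log2 difference was 2.91 ± 0.49 (SE; limma, adjusted p = 0.0173). Prex1, an exchange factor for RAC, had 1603, 3795, 1673 and 2846, against 949 to 1443, again with no overlap (0.99 ± 0.18, adjusted p = 0.0296). Sos1, an exchange factor for RAS, had 678, 1045, 504 and 910.4, against 182 to 564, so WT_early_5 overlapped (1.16 ± 0.23, adjusted p = 0.0484). Pkn3, a kinase of the protein kinase N family, had 235, 341, 160.2 and 328, against 30.7 to 153, with no overlap (1.88 ± 0.35, adjusted p = 0.0337).

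Others act in transcription or chromatin. Nfic, a nuclear factor I protein, had 512, 699, 362 and 554, against 140.2 to 336 in the others, with no overlap (1.28 ± 0.24, adjusted p = 0.0337). Kdm4a, a histone lysine demethylase, had 1154, 1815, 928 and 1733, against 587 to 954 (0.82 ± 0.16, adjusted p = 0.0386). Cbfa2t3, the corepressor ETO2, had 507, 1267, 494 and 1261, against 157 to 550.2 (1.55 ± 0.29, adjusted p = 0.0337). For Kdm4a the overlap came from WT_early_5 alone; for Cbfa2t3 both raised libraries of high Ebf1 lay below HET_late_2. Espnl, an espin-like protein, had the largest difference, 5.01 ± 0.76 (adjusted p = 0.00898), from 62.4, 219, 8.01 and 108 against a median of 0.435 and a highest value of 15.8. Abca3, a lipid transporter, differed by 1.48 and Tmem260 by 1.12. The remaining calls, Dok6, Galnt5 and Ifitm5, averaged 2.75 to 3.42 in the raised set and under 0.32 in the others, values of a few reads. They met the filter of 1 or more in at least 4 libraries only with the raised libraries counted, so their calls are no support. They lie outside the naming rule and are named only to complete the count. In WT_late_5 and WT_early_5 the same direction was seen for all 10 genes of the rule, with differences of 0.43 to 3.67 when only those 2 formed the raised set. The genes were chosen from a fit that held the same 2 libraries, so this is not an independent check.

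The 3 genes called lower had no overlap between the sets, and 2 of them had only a few reads in the raised set. None of the 3 passed when adjusted over genes off chromosome 15 alone. Ngfrap1, a BEX family adaptor on chromosome X, had 74.1, 24.0, 39.2 and 63.6 in WT_late_5, WT_late_1, WT_early_5 and HET_late_1, against 112 to 729 in the others (-1.99 ± 0.38, adjusted p = 0.0386). Zfp105, a zinc finger gene, had 2.35, 2.77, 1.78 and 0.871, against 6.04 to 129 (-3.17 ± 0.59, adjusted p = 0.0337). Ifi213, of the interferon-inducible PYHIN family, had 0, 1.84, 4.45 and 3.48, against 7.20 to 60.6 (-2.98 ± 0.58, adjusted p = 0.0386). The next by p were Gtdc1, a glycosyltransferase-like gene (-0.95), and Xrcc5, both with an adjusted p of 0.0876. Xrcc5 encodes the Ku80 partner of Ku70 in end joining, and had 683, 184, 347 and 290.1 against 463 to 895. Its partner Xrcc6 lies on chromosome 15 and had 2516, 1235, 6004 and 1108, against 593 to 6693.

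Other chromosomes gave no difference that passed. Each of the 19 other chromosomes, X included, was tested with a two-sided exact permutation test over the 3060 ways to choose 4 of 18 libraries, whose smallest possible p is 0.000327. None passed after adjustment over the 19; at an unadjusted 0.05 it was 3. Chromosome 14 was higher by 0.20 on average (exact p = 0.0101, adjusted 0.0962), with 0.27 in WT_late_5, 0.13 in WT_late_1, 0.38 in WT_early_5 and -0.06 in HET_late_1, against -0.08 to 0.24 in the others. Chromosome 16 had 0.42, 0.10, -0.04 and -0.01, against -0.06 to 0.04 (difference 0.13, exact p = 0.0284, adjusted 0.180). Chromosome 2 differed by -0.04 (exact p = 0.00458, adjusted 0.0869), a far smaller amount.

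The raised libraries differed in how many other chromosomes stood out. In WT_late_5, 6 other chromosomes (3, 10, 14, 16, 17 and 18) were at 0.25 or more. In WT_early_5 it was chromosome 14 alone, and in WT_late_1 and HET_late_1 none. Among the 14 others, 6 had at least 1 such chromosome in either direction, led by WT_early_2 with 3. At that threshold, a raised chromosome 15 came alone in 2 lymphomas and with 1 or 6 other chromosomes in the remaining pair.

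**Figure D4:**
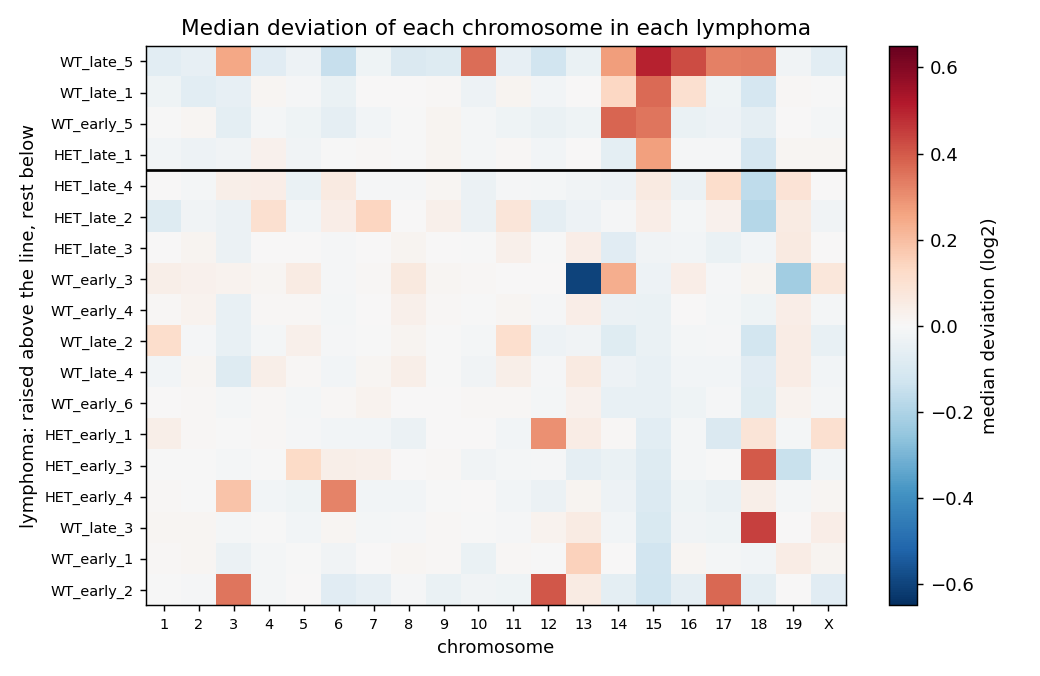
Rows are the 18 lymphomas compared, raised above the line, and columns the chromosomes; colour gives the median deviation of a chromosome's genes in log2 units. Chromosome 15 is red in the 4 top rows, WT_late_5 has 6 further raised chromosomes, and 1 to 3 chromosomes stand out in 6 of the rows below the line.

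MYC's network showed no call. Of 46 MYC target genes, 11 were higher and 35 lower (median -0.14), against 50.4% higher and a median of 0.00 over all genes off chromosome 15. Ncl, encoding nucleolin, had 23354, 17377, 18023 and 17631 in WT_late_5, WT_late_1, WT_early_5 and HET_late_1, against a median of 23809 in the others (-0.26, adjusted p = 0.683). Npm1, encoding nucleophosmin, differed by -0.23, and Ldha, the lactate dehydrogenase gene, by -0.45 (adjusted p = 0.503). Of 11 partners and antagonists of MYC, 7 were higher (median 0.20). Max, the dimer partner itself, had 1395, 1017, 1011 and 1073, against 1059.9 to 1915 (-0.35, adjusted p = 0.4). In these 2 lists limma, edgeR and DESeq2 made 0 calls, with 2 targets and 1 partner at an unadjusted 0.05 in limma.

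Proliferation genes did not separate the sets either: 17 of 39 were higher (median -0.03), with 0 calls by any of the 3 tools and 0 at an unadjusted 0.05. Mki67 had 10710.3, 7476, 13020.4 and 8601, against 3909 to 14065. Without the libraries of low Ebf1, 33 of the 39 were higher (median 0.14). Oxidative phosphorylation genes were lower in 23 of 25 cases, by a small median of -0.18. Targets of ARF and p53 split 13 to 11 (median 0.13), and 9 of 14 BCL2 family genes were higher (median 0.07). The survival factor gene Mcl1 had 3958, 8249, 2538 and 6652, against 2754 to 7152. Interferon response genes were lower in 13 of 20 cases (median -0.39). None of these lists held a call by any of the 3 tools, and at an unadjusted 0.05 limma gave 0 oxidative phosphorylation genes, 1 p53 target, 2 BCL2 family and 2 interferon genes.

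Medians of the B cell lists depended on whether the libraries of low Ebf1 were kept. Among 15 pan-B genes, 3 were higher and 12 lower, with a median of -0.35; it was -0.03, with 7 higher, when the libraries of low Ebf1 were left out. DESeq2 called 1 of the 15, limma and edgeR 0, with 5 at an unadjusted 0.05. Pro-B and pre-B genes had a median of 0.04 with all libraries and 1.43, with 18 of 19 higher, without those of low Ebf1. For MHC class II genes, which present antigen, the sign turned round: 9 of 11 were higher with a median of 0.50, and 1 of 11 with a median of -0.46 without those libraries. Cd74, the class II invariant chain, had 26397, 32396, 1331 and 34616 in WT_late_5, WT_late_1, WT_early_5 and HET_late_1, against 1311 to 45238. Among the raised libraries it was low in WT_early_5 alone. Germinal centre and plasma cell genes had a median of -0.03 and, without those libraries, -0.996. These 3 lists held 0 calls by any tool, and 1 gene at an unadjusted 0.05, a pro-B and pre-B gene.

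Markers of other cells held no limma call. Of 13 stromal genes 12 were higher (median 0.69), with 6 at an unadjusted 0.05 and 0 calls by any tool. Their summed level was 23614 to 35663 in the raised set, against 5791 to 30625 in the others. Col1a1, the collagen I chain, had 5875, 8904, 8758 and 5501, against a median of 2418 and a highest value of 6143 (2.02 ± 0.63, adjusted p = 0.245). All 10 erythroid genes were higher (median 1.52), with summed levels of 934 to 4100.2 against 246 to 1939.8; limma called 0, with 7 at an unadjusted 0.05, edgeR 2 and DESeq2 1. The near-identical globin genes can share reads, so their single values are uncertain. Of 18 T cell markers 5 were higher (median -0.85). Their sums were 1857 and 1000.5 in WT_late_5 and WT_early_5, 10018 and 7612 in WT_late_1 and HET_late_1, and 828 to 11220 in the others. The list is divided within itself: Cd8b1 had 2411 and 1614 in WT_late_1 and HET_late_1, but Cd3e, a chain of the T cell receptor complex, 7.38 and 37.5.

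Macrophage markers (7 of 15 higher, median -0.06) summed to 7934 to 32738, against 8481 to 50239. Endothelial markers (6 of 12 higher, median 0.03) summed to 2627 to 4547, against 1964 to 5610. Cartilage, muscle and salivary genes (9 of 13 higher, median 0.90) summed to 5558 in WT_early_5, which had 1865 of the cartilage gene Acan, and to at most 106 in the other 3 raised libraries, against 28.3 to 592593 in the others. Of 5 sex-linked genes 1 was higher (median -1.63), and it was Xist. In these 5 lists limma called 0 genes, with 2 T cell, 1 macrophage, 1 endothelial, 1 cartilage, muscle and salivary and 0 sex-linked genes at an unadjusted 0.05. DESeq2 called 0 and edgeR 3, all cartilage, muscle and salivary genes. No listed marker was at 0 in all raised libraries, and the part of these cells in the results was not tested.

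**Figure D5:**
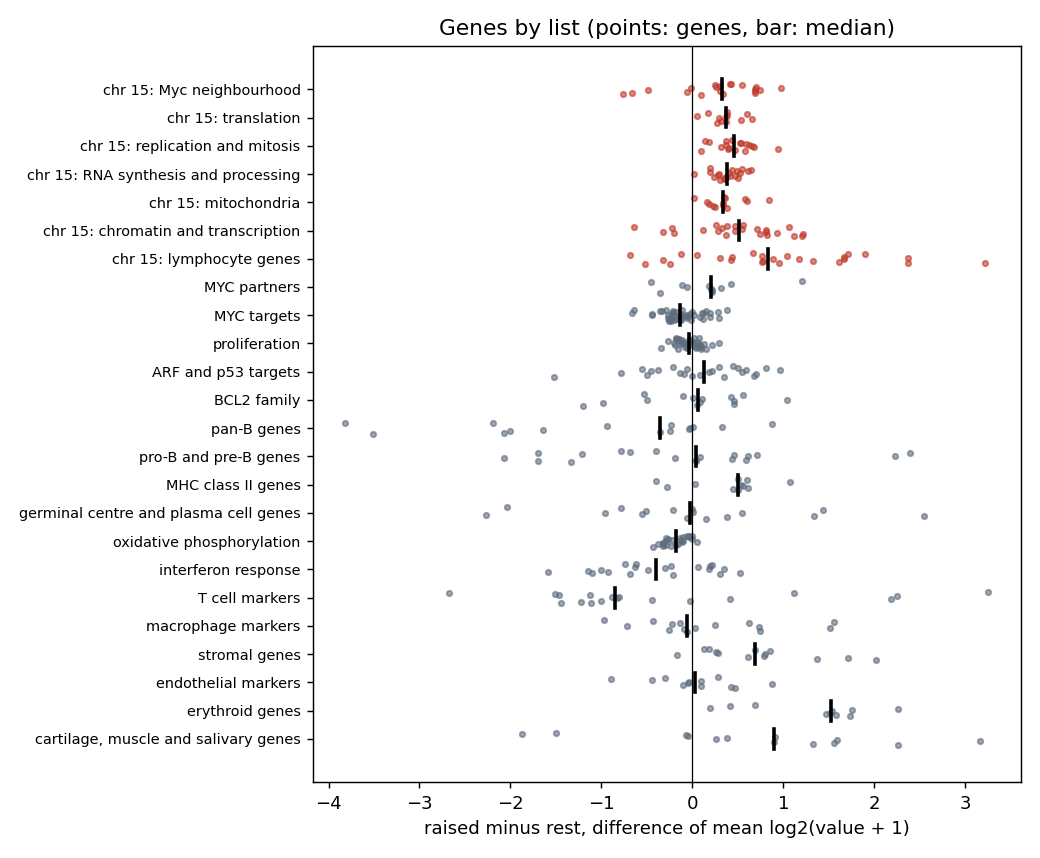
Each point is a gene, each black bar the median of its list, and the horizontal axis the raised minus the other lymphomas in mean log2(value + 1). The 7 lists on chromosome 15 (red) have medians of 0.32 to 0.83, while those drawn for other chromosomes (grey) run from -0.85 for T cell markers to 1.52 for erythroid genes.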

How the data were processed

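Normalised gene read counts from poly(A)+ RNA of 19 lymphomas were used. The authors deposited them as a signal per gene; judged from the values, they are read counts divided by 1 factor per library. The submitters' processing notes name the tools Cuffnorm, Cuffdiff, Cufflinks (2.2.1), TopHat2 (2.1.1) and FastQC (0.11.5), and the build GRCm38/mm10; how each served is not given in the sources used here, nor is the use of strand, so reads of overlapping genes cannot be told apart. Division by each library's step gave whole reads (within 0.01 reads) for 100% of values. Counts do not separate PCR copies.

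The members and lists were chosen with earlier results of these data known. Libraries were grouped by the rule on chromosome 15, and HET_early_2 was left out. Deposited values were turned into log2(value + 1); 19555 of 21086 genes, those that reached 1 in 4 or more libraries, entered limma 3.58.1 (R 4.3.3, trend), 4 raised against 14 others in 1 fit without covariates, with p-values adjusted by Benjamini-Hochberg over all of them, none of which are deposited p-values of the authors. Chromosomes were matched by symbol in GENCODE M21 (16109 genes) or RefSeq (218). The other 4759 genes, 23 of them symbols turned into dates, have no chromosome here, and 3878 of them entered the fit without being counted on or off chromosome 15. A library's deviation is the median over a chromosome's genes of mean at least 10 (12329 genes), after subtracting each gene's median over the 18 libraries and the library's autosomal median. Other chromosomes were tested by an exact permutation test. edgeR 4.0.16 and DESeq2 1.42.0, on the recovered reads, and the other settings given at the end were alternatives. The limma, edgeR and DESeq2 steps were tested on simulated data.

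Genes were named by a rule: Myc and Pvt1; the 10 largest and 5 smallest differences on chromosome 15 at a mean of at least 50; off it, the 10 largest called differences in each direction, or the 5 smallest p-values where fewer than 5 were called; and the 3 most abundant genes of each list. Clone-named genes, and genes averaging under 10 in both sets, were passed over. Other genes were chosen after their values were seen: chromosome 15 genes without overlap, further list members and the B cell markers. Tables and figures used Python 3.11.15, NumPy 2.4.6, pandas 2.3.3 and matplotlib 3.10.9.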

Additional observations from a re-analysis of the deposited data

Results flagged for a closer look

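Each quantity of the 4 raised lymphomas was checked for 1 library far from the other 3 by Dixon's test at its 95% critical value. Of 52 quantities 7 had one, where chance gives about 1 in 20, and it was WT_late_5 each time. On chromosome 3 its deviation was 0.25, against -0.06 to -0.02 in the other 3 raised lymphomas. On chromosome 10 it was 0.36 (the other 3: -0.03 to -0.01), on chromosome 17 it was 0.33 (-0.03 to -0.01) and on chromosome 18 it was 0.33 (-0.11 to -0.06). Deviations are relative to the library's autosomal median, and all 13 chromosomes of WT_late_5 outside the 7 at 0.25 or more lay below 0, at -0.15 to -0.02. Among these, chromosome 8 stood lower in it than in the other 3, at -0.092 with the other 3 close to 0, and so did chromosome 9, at -0.084 (the other 3: 0.01 to 0.02). Its Myc level was 13.86 on the log2 scale, against 12.55 to 12.68 in the other 3.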

How the results depend on the processing

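Calls off chromosome 15 depended on the setting. The 16 of limma were 298 with DESeq2 and 109 with edgeR on recovered reads, 9 with Xist as covariate, 9 after quantile normalisation, 3 when adjusted over genes off chromosome 15 alone, 2 with HET_early_2 among the others and 5 without WT_early_6 and HET_late_4. Leaving out 1 library gave 0 (without WT_late_1 or HET_late_1) to 50. It gave 3 without WT_late_3, 4 without WT_early_1, 5 without WT_early_4 or HET_early_3, 8 without WT_early_6, 9 without HET_early_1 and 10 without HET_late_3. Under settings chosen after seeing the data, 0 were left without WT_late_1 and HET_late_1 (801 at an unadjusted 0.05) and 0 without the 3 libraries of low Ebf1 (912). None of the 15 genes tracked off chromosome 15 (the 10 higher and 5 lower of the naming rule) changed direction in the 30 settings run. They were chosen from the main fit on the same libraries, so a kept direction is not independent support.

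The chromosome 15 difference of 0.42 was 0.38 to 0.46 with 1 library left out and 0.49 without WT_late_1 and HET_late_1. Of other chromosomes 1, chromosome 2, passed without WT_early_5, and 0 in the rest of the settings. With 2 raised against 13 others (105 splits) the exact test cannot pass. List medians moved by more than the replicate spread for cartilage, muscle and salivary genes (-0.82 and 2.69) and MHC class II genes (-0.59). The causes were not tested.

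No paired analysis was possible because the replicate numbers only name libraries in accession order. Depth limits genes of a few reads, such as Zfp105 and Ifi213.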

Other observations

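The 3 libraries with Ebf1 under 100, WT_late_1 and HET_late_1 of the raised set and HET_late_2 of the others, had high levels of several further genes, chosen here after their values were seen. Siglech, a sialic acid-binding lectin, had 2677 in WT_late_1, 1598 in HET_late_1 and 344 in HET_late_2, against 8.01 in WT_early_5, 0 in WT_late_5 and at most 73.8 in the 13 remaining lymphomas. Flt3, a receptor tyrosine kinase of blood progenitors, had 1524, 1042 and 206 in the 3 libraries, against 17.8 in WT_early_5 and 93.0 in WT_late_5, with a median of 35.9 and a highest value of 895 in the 13, so HET_late_2 lay inside their range. Cd300c had 223, 267 and 217, against 0 in both other raised lymphomas and at most 6.74 in the 13. The transcription factor genes Tcf4 and Bcl11a were highest in the same 3 libraries. Tcf4 had 4006, 3799 and 2561 and Bcl11a 2264, 2394 and 1682, while the 13 reached at most 1946 and 1079. WT_early_5 had 1568 of Tcf4, inside the range of the 13, and 1258 of Bcl11a, above it. Irf8 and Spib, looked at together with these genes, did not set the 3 libraries apart. Irf8 had 6799, 4403 and 4522, and the 13 reached 5292. Spib had 6197, 4087 and 4936, and the 13 reached 5972, so only WT_late_1 stood above the 13 for either gene. Cd4 had 5375, 2234 and 2358, against at most 1230.1 in the 13, and Cd5 had 926, 1313 and 694, against at most 85.6. Cd3d stood at 12.0, 40.1 and 177, inside the range of the 13, whose highest value was 231.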
